A study of Mus musculus with 6 samples.

Results

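The mitochondrial ribosomal protein genes, *Mrpl* for the large subunit and *Mrps* for the small subunit, were examined in hind limb skeletal muscle with and without Baf155. Every row of the deposited table whose symbol begins with Mrpl or Mrps followed by a digit was taken, which gave 77 of 20632 genes, and no measured value entered this choice. All 77 passed the filter on low counts and were among the 12116 genes tested. By their known place in the mitoribosome, 50 encode large subunit proteins, 26 encode small subunit proteins, and *Mrps36*, despite its symbol, encodes a component of the 2-oxoglutarate dehydrogenase complex.

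Mitochondria keep their own ribosome, which translates the few mRNAs of the mitochondrial genome into core subunits of the respiratory chain and the ATP synthase. Its rRNAs are encoded in mitochondrial DNA, while all of its proteins are encoded in the nucleus, made in the cytosol and imported, so their supply has to be matched to that of the organelle. Some of these proteins have bacterial homologues and others were added during mitochondrial evolution. In skeletal muscle the mitoribosome is needed for oxidative phosphorylation, and inherited defects of its proteins often appear in muscle and heart.

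The study compared 3 Baf155 WT mice (Baf155 f/f, wild type in the labels) with 3 Baf155 ΔMF mice (MCK-Cre; Baf155 f/f, Baf155 -/- in the labels), all male, 3 months old and on a C57BL/6 background (C57BL/6J in the study's methods). Both alleles of *Smarcc1*, which encodes the SWI/SNF chromatin remodeling subunit Baf155, were floxed in both genotypes, and only the ΔMF mice carried the Cre. MCK-Cre is driven by the muscle creatine kinase promoter and is active in muscle fibres and also in heart, so the other cells of the muscle keep Baf155. Total RNA was taken from freshly isolated TA, EDL, GA, SOL and Q muscles of unexercised mice, with 1 library per mouse. Levels are given as CPM, the counts of a gene per 1000000 counts of the library, after scaling by the trimmed mean of M-values (TMM).

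The libraries held 8426053 to 12469347 estimated reads, and 3 counts corresponded to 0.23 to 0.351 CPM. *Smarcc1* was measured at 23.4, 19.5 and 17.0 CPM in the WT mice and at 7.05, 6.54 and 7.72 CPM in the ΔMF mice, a log2 fold change of -1.49 (SE 0.15, edgeR adjusted p = 0.00907). Its edgeR adjusted p was 0.0616 without WT mouse MS15-2, 0.0533 without ΔMF mouse MS13-1 and 0.0678 without ΔMF mouse MS13-2, with the fold change between -1.59 and -1.36 whichever mouse was left out. The labels also carry title prefixes whose meaning they do not give. MS13 covers 1 WT and 2 ΔMF mice, MS15 covers 2 WT mice, and MS14 covers 1 ΔMF mouse, so effects of prefix and genotype cannot be told apart except within MS13. The MS15 WT mice stood apart on the first principal component (43.3% of the variance) at 22.5 and 24.98, against -17.1 to -1.56 for the other 4 mice. Summed macrophage and leukocyte markers were 37.9 CPM in WT mouse MS13-3, 113 and 90.8 CPM in the MS15 mice, and 36.1 to 57.5 CPM in ΔMF mice, with all 5 markers lower in ΔMF. The 4 endothelial markers were all higher in ΔMF muscle (192 to 249 CPM summed in WT, 251 to 273 CPM in ΔMF, median log2 fold change 0.31), and the 4 adipocyte markers (median -0.43) and the 3 erythroid markers tested (median -0.56) were all lower. The 8 myofibre markers summed to 139900 to 140400 CPM in WT and 131000 to 138400 CPM in ΔMF muscle, but 3 of 8 were below 0 and their median was 0.05. None of these markers passed the adjusted limit. The part of these differences in the values below was not tested.

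Promoter sequence was examined as a feature that the choice of genes did not use. The 77 genes lie on 17 chromosomes, with at most 10 on 1 of them (chromosome 11). RefSeq windows of 300 bases on GRCm38.p6, from 250 bases before to 50 bases from the annotated start onward, were matched by symbol for 68 of the 77 genes. Both strands were searched for the ETS/GABP core (CCGGAAG), the NRF1 core (GCATGCGC), the YY1 core (AAGATGG) and the E-box (CACGTG). The ETS/GABP and YY1 cores can share the letters AAG. The windows below are those of the member with the smallest p (*Mrpl52*), of the only member whose ΔMF values all lay above the WT values (*Mrpl35*), of the member with most NRF1 cores (*Mrpl32*), and of a pair whose windows overlap on opposite strands (*Mrps11* and *Mrpl46*). Letters are given 5′ to 3′ on the strand of the gene, and capitals mark the matches.
Mrpl52, chr14:54426659-54426958, plus strand: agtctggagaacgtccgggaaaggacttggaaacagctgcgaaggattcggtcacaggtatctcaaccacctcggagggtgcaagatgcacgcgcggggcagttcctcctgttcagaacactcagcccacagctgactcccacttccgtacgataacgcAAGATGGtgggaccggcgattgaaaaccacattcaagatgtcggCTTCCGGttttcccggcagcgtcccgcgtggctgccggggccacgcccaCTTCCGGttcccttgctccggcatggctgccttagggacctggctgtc
Mrpl35, chr6:71823735-71824034, minus strand: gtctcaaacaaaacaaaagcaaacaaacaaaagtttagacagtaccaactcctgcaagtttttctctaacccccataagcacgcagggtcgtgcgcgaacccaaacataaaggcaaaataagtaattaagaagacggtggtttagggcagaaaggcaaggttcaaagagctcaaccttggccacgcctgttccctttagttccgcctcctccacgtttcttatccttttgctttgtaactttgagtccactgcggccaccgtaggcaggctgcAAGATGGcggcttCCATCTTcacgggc
Mrpl32, chr13:14612988-14613287, minus strand: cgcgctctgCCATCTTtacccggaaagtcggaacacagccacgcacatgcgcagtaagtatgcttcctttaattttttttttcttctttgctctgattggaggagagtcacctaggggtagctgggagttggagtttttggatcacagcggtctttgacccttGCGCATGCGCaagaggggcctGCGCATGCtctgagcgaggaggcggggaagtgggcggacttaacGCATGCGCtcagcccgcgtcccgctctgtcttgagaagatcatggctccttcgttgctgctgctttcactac
Mrps11, chr7:78782881-78783180, plus strand: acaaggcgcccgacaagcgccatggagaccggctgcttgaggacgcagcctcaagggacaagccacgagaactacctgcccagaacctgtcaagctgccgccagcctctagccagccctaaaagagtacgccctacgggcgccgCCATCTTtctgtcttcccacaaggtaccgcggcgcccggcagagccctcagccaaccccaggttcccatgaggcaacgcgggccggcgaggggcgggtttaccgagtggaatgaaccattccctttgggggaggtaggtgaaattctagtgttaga
Mrpl46, chr7:78783040-78783339, minus strand: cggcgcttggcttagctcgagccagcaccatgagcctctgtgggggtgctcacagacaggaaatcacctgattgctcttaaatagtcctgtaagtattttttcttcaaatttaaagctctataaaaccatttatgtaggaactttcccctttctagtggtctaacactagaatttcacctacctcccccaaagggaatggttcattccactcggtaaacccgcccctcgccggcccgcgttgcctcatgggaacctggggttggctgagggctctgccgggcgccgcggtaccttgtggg

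*Mrpl52* held ETS/GABP cores beginning 47 bases before and 2 bases after the start, and a YY1 core beginning 91 bases before it. In *Mrpl35* the YY1 core began 23 and 36 bases after the start, and *Mrpl32* held 4 matches to the NRF1 core, of which 2 overlapped. None of the 4 motifs was found in the window of *Mrpl46*. An ETS/GABP core was present in 23 of 68 member promoters (33.8%, exact 95% interval 22.8 to 46.3), against 9.14% of all 27025 promoters and 18.2% of the 9374 promoters of genes tested here. NRF1 cores were found in 8 of 68 (11.8%, against 2.81% of all and 5.51% of tested promoters), and YY1 cores in 13 of 68 (19.1%, against 6.46% and 7.31%). E-boxes were found in 5 of 68 (7.35%, against 7.24% and 10.4%). The YY1 core lay within the last 50 bases of the window, downstream of the start, in 8 of 68 member promoters (11.8%, against 1.9% of all and 3.22% of tested promoters), and each of the 8 held such a match on the strand of the gene, *Mrpl35* with a further one on the other strand. At least 1 of the 4 motifs was present in 37 of 68 member promoters (54.4%) and in 35.3% of tested promoters, with a median GC content of 58.2% in members and 61.0% in tested genes. A match describes letters in these windows, not binding, and no binding data were analysed here.

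**Figure D1:**
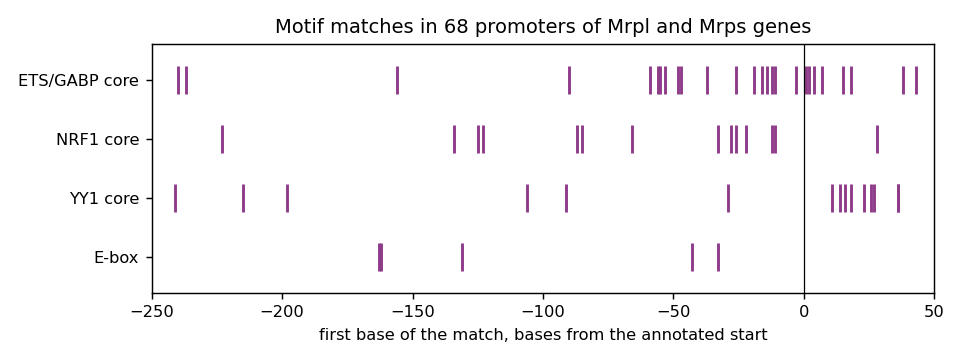
Position of every match to the 4 motifs in the 68 member promoters, each mark at the first base of a match on the axis of bases from the annotated start. YY1 core matches of 8 promoters lie between the start and base 50 after it, and ETS/GABP matches crowd around the start.

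The deletion of Baf155 was followed through the levels of the 77 mRNAs. None of the 77 genes differed between genotypes at an adjusted p under 0.05 in edgeR's quasi-likelihood test, where 3 of 12116 genes (0.0248%) did, and the smallest adjusted p of a member was 0.601. The fold changes were small, with a median of -0.08 on the log2 scale over the members and of -0.00095 over all genes tested. In 63 of 77 members (81.8%) the log2 fold change was below 0, against 50.2% of all genes tested. With library size alone as the scaling these shares were 71 of 77 (92.2%) and 64.2%. At an unadjusted p under 0.05, 1 member was lower (1.3%, against 4.6% of all genes) and 0 were higher (against 3.35%). All 3 ΔMF mice lay below all 3 WT mice for 6 members (7.79%, against 5.57%) and above them for 1 member (1.3%, against 5.2%).

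The fit also gave an interval for each fold change. The 95% interval of the fold change lay within 1.4-fold in both directions for 69 of 77 members (89.6%, against 57.1% of all genes tested), and the standard errors of the members ran from 0.08 to 0.18 on the log2 scale. The members had a median of 34.03 CPM in WT and a median standard error of 0.11, against 16.89 CPM and 0.13 over all genes tested. The part of abundance in the share of narrow intervals was not tested. Only *Mrpl52* had an interval that left out 0. The widest limits allowed a 1.67-fold decrease and a 1.47-fold increase for single members. These limits take the 6 mice without regard to the prefix, and other fits moved single members, such as *Mrpl27* to between 0.076 and 0.37 and *Mrps21* to between -0.35 and -0.0099. In 54 of 77 members the absolute log2 fold change was under the SD within genotypes, as it was for 62.3% of all genes.

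**Figure D2:**
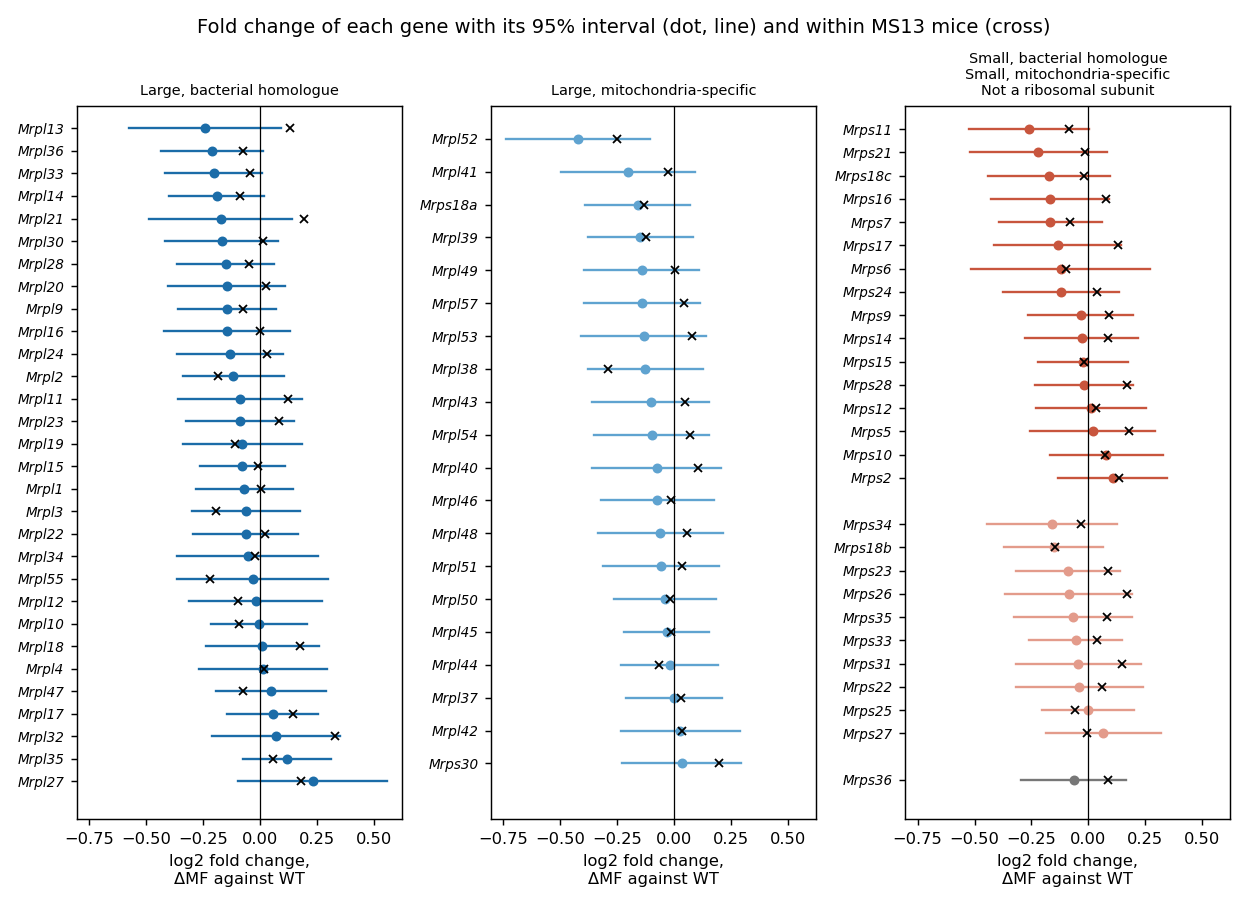
Log2 fold change of each of the 77 genes, ΔMF against WT (dots), with its 95% interval (lines) on the horizontal axis, and the difference between the 2 ΔMF mice and the WT mouse that share the prefix MS13 (crosses, 1 WT mouse and no test). Most dots lie left of 0, with every interval except that of *Mrpl52* crossing 0, while the crosses lie on both sides.

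Averaged over the 77 genes, log2 CPM was 4.96, 5.08 and 5.17 in WT mice MS13-3, MS15-2 and MS15-3, and 4.94, 5.01 and 5.03 in ΔMF mice MS13-1, MS13-2 and MS14-2. The genotypes overlapped, since WT mouse MS13-3 lay below 2 of the 3 ΔMF mice. The means were 5.07 ± 0.11 (SD, n = 3) and 5.0 ± 0.046 (SD, n = 3), a difference of -0.075 that was smaller than the SD among WT mice. Summed over the genes, the WT mice held 2745, 2958 and 3214 CPM and the ΔMF mice 2687, 2860 and 2907 CPM. In bulk muscle, fewer cells of a type and less RNA per cell cannot be told apart.

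**Figure D3:**
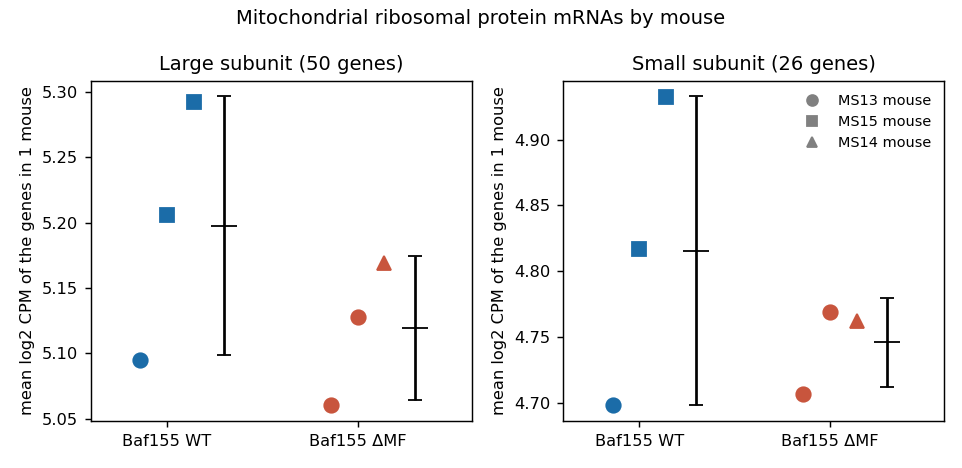
Mean log2 CPM of the large and the small subunit genes in each mouse (vertical axes, with their own range in each panel), with the mean ± SD of each genotype in black and the title prefix as the symbol. Both MS15 WT mice lie above every ΔMF mouse in both panels, and WT mouse MS13-3 lies among or below the ΔMF mice.

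Among the WT mice, member levels were mostly higher in the MS15 mice than in mouse MS13-3. With 1 WT mouse of prefix MS13, high values in MS15 and low values in MS13-3 cannot be told apart. The mean log2 CPM of the 2 MS15 mice was above that of WT mouse MS13-3 in 65 of 77 members (84.4%, against 51.2% of all genes). The median difference was 0.19 on the log2 scale, more than the median difference between genotypes. WT mouse MS15-3 held the highest value of the 6 mice for 47 members (61.0%, against 19.3% of all genes). Among the MS13 mice alone, 2 ΔMF against 1 WT, 34 of 77 members (44.2%, against 50.2%) were below 0 and the median was 0.02. Without the MS15 WT mice, a choice made after seeing the data, 32 of 77 members (41.6%, against 48.9%) were below 0 with a median of 0.04. With the prefix as a covariate it was 33 of 77 (42.9%, against 49.2%) with a median of 0.02. That fit compares genotypes only within MS13. All of these comparisons thus rest on WT mouse MS13-3 as the only WT mouse and are not separate checks. When WT mouse MS15-3 alone was left out, 47 of 77 members were below 0 and the median was -0.021, with no share of all genes given here.

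WT mouse MS13-3 had the opposite effect on the calls. When it was left out, 2 members had an edgeR adjusted p under 0.05 (2.6%, against 7.77% of 12288 genes), *Mrpl52* at -0.54 (adjusted p = 0.0216) and *Mrpl13*, encoding a homologue of bacterial uL13, at -0.41 (adjusted p = 0.0229). At an unadjusted p under 0.05 this fit gave 15 lower members (19.5%, against 11.8%). *Mrpl13* was measured at 27.9 CPM in WT mouse MS13-3, 40.6 and 43.8 CPM in the MS15 mice, and 30.1, 31.0 and 33.9 CPM in the ΔMF mice. Its lowest value was thus that of a WT mouse.

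**Figure D4:**
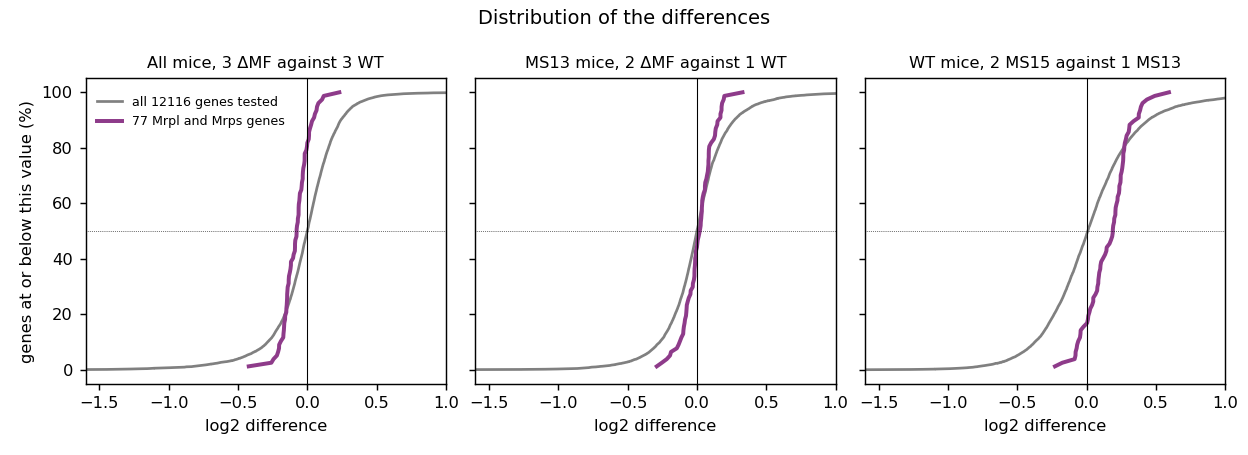
Cumulative share of genes (vertical axis, percent) at or below each log2 difference (horizontal axis) for the 77 members and for all 12116 genes tested, with a few genes outside the plotted range. The member curve lies left of all genes for 3 ΔMF against 3 WT mice (median -0.08), close to it within MS13 (median 0.02), and to the right for MS15 against MS13 WT mice (median 0.19).

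Gene length and GC content moved with the fold changes over all genes, and the members are short. Their median exonic length was 2255 bases against 4627.5 for all genes tested, while the GC content was close (49.7% in both). Across 12092 genes, Spearman's correlation of the fold change with exonic length was 0.307 in the 6 mice and 0.0333 within the MS13 mice, as a description over genes from the same libraries. After a length trend was removed from each mouse, 47 of 77 members were below 0 and the median was -0.026. The share of all genes below 0 in that fit is not given here. Among the 77 members the correlation with length was 0.238 in the 6 mice and 0.24 within MS13. With GC content it was -0.154 over all genes (-0.18 within MS13) and -0.218 over the members (-0.363 within MS13). The part of length and GC content in the members' values was otherwise not tested.

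Among the 30 large subunit proteins with bacterial homologues, 23 were below 0, from -0.24 to 0.23 with a median of -0.08. *Mrpl33*, homologous to bacterial bL33, had 47.4, 54.8 and 57.6 CPM in WT and 45.3, 46.6 and 47.0 CPM in ΔMF mice (log2 fold change -0.20, SE 0.10, edgeR adjusted p = 0.622). *Mrpl36*, the counterpart of bL36, had 24.9, 28.8 and 28.7 CPM against 23.4, 23.9 and 24.0 CPM (-0.21, SE 0.10), and *Mrpl14*, a protein of the intersubunit face, had 32.2, 34.6 and 35.3 CPM against 31.2, 29.3 and 29.0 CPM (-0.19, SE 0.10). The genotypes did not overlap for these 3 genes, although the gaps to WT mouse MS13-3 were small. For *Mrpl9* they did not overlap either, with 44.35 CPM in WT mouse MS15-3 and 43.99 CPM in ΔMF mouse MS13-1 as the nearest values. Lower values without overlap were thus seen in 4 of the 30 genes, against 5.57% of all genes tested. None of their differences passed the test.

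Higher values in the same group were given by *Mrpl27* and *Mrpl35*. *Mrpl27*, whose bacterial homologue reaches into the peptidyl transferase centre, was measured at 13.99, 16.4 and 15.1 CPM in WT and 17.6, 14.3 and 21.6 CPM in ΔMF mice (0.23, SE 0.15), a wide spread that overlapped the WT range. Its log2 fold change was 0.076 without ΔMF mouse MS14-2 and 0.37 without ΔMF mouse MS13-2. *Mrpl35*, the only member with all ΔMF mice above all WT mice, had 39.2, 37.5 and 37.2 CPM against 39.4, 42.2 and 42.0 CPM (0.12, SE 0.09). Reads of both genes were split by the authors' counting in all 6 mice, as fractional estimates show, so their levels are less certain. The same held for other members, *Mrpl9*, *Mrpl19* and *Mrpl41* among them. *Mrpl17* lay at 0.054 (SE 0.09). *Mrpl12*, which has also been linked to the mitochondrial RNA polymerase, had 41.4, 35.6 and 49.0 CPM in WT and 40.7, 36.8 and 46.8 CPM in ΔMF mice (-0.02, SE 0.13).

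The 20 large subunit proteins taken as mitochondria-specific held the largest difference. *Mrpl52*, on chromosome 14 (GRCm38, 54426909 to 54429756, plus strand), had 15.4, 19.97 and 20.5 CPM in WT and 12.4, 13.5 and 16.02 CPM in ΔMF mice. The genotypes overlapped only through WT mouse MS13-3, which lay below ΔMF mouse MS14-2. Its log2 fold change was -0.42 (SE 0.14, 95% interval -0.74 to -0.11) with an edgeR adjusted p of 0.601, and -0.25 within MS13. Over 17 other ways of fitting, the fold change stayed between -0.54 and -0.25 and the edgeR, limma or DESeq2 adjusted p between 0.0216 and 0.992. Without both MS15 WT mice, a fit outside these 17, the log2 fold change of *Mrpl52* was -0.15. Its promoter window is the first of those printed above.

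In this group 18 of 20 were below 0, with a median of -0.09. *Mrpl39* was the only one without overlap, at 22.3, 21.3 and 24.8 CPM against 20.4, 20.5 and 20.8 CPM (-0.15). *Mrpl41*, reported to act in cell death besides the ribosome, had 23.8, 24.0 and 30.7 CPM in WT and 21.03, 25.9 and 21.2 CPM in ΔMF mice (-0.20, SE 0.13), with -0.075 without WT mouse MS15-3 and -0.31 without ΔMF mouse MS13-2. *Mrpl44*, an RNase III-like protein whose mutation causes cardiomyopathy, differed little, at 28.6, 26.2 and 29.2 CPM against 27.8, 26.8 and 28.2 CPM (-0.02, SE 0.10). The most abundant member by CPM, *Mrpl42*, ranged from 166 to 209 CPM in WT and from 161 to 202 CPM in ΔMF mice (0.027). *Mrps30*, which sits in the large subunit despite its symbol, had a value of 0.033 (SE 0.12).

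Of the 16 small subunit proteins with bacterial homologues, 12 were below 0 with a median of -0.08. *Mrps11*, a protein of the platform near the mRNA exit, was lower in every ΔMF mouse than in any WT mouse, at 15.9, 18.0 and 20.4 CPM in WT and 14.8, 15.2 and 15.4 CPM in ΔMF mice (-0.26, SE 0.12, edgeR adjusted p = 0.622). *Mrpl46*, which shares its promoter region on the other strand, had 21.1, 19.7 and 24.2 CPM against 21.4, 20.5 and 19.8 CPM (-0.07). The genes overlap on opposite strands, so if the counting did not use strand, their reads cannot be told apart where they overlap. The same limit holds for 35 of the 77 genes, which overlap an annotated gene on the opposite strand, *Mrpl14*, *Mrpl33*, *Mrpl36* and *Mrps7* among them. *Mrps7*, of the small subunit head, had 64.7, 74.4 and 77.8 CPM against 59.9, 62.6 and 71.0 CPM (-0.17, SE 0.10). *Mrps12*, a protein of the decoding site, had 21.5, 24.3 and 23.3 CPM against 22.3, 21.7 and 25.7 CPM (0.012, SE 0.11). Values above 0 were also seen for *Mrps2* (0.11, SE 0.11) and *Mrps10* (0.079, SE 0.11), which encode homologues of bacterial uS2 and uS10.

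The 10 small subunit proteins taken as mitochondria-specific ran from -0.16 to 0.066, and 9 were below 0. The pentatricopeptide repeat protein gene *Mrps27* had 19.0, 17.4 and 19.5 CPM in WT and 20.8, 17.2 and 20.6 CPM in ΔMF mice (0.066, SE 0.12). *Mrps18a*, *Mrps18b* and *Mrps18c* encode 3 proteins related to bacterial bS18, of which *Mrps18c* was counted as the bacterial homologue and the others as mitochondria-specific, *Mrps18a* in the large and *Mrps18b* in the small subunit. They had log2 fold changes of -0.16 (SE 0.11), -0.15 (SE 0.10) and -0.17 (SE 0.12). Their genotypes overlapped. *Mrps36* had 34.3, 39.2 and 42.3 CPM against 38.2, 34.7 and 38.0 CPM (-0.063, SE 0.10).

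Members differed far more from one another than between genotypes. Per kilobase of merged exon, a level adjusted for annotated length, WT muscle ranged 63.2-fold with a median of 14.5. The ends were 1.66 ± 0.083 CPM per kb (SD, n = 3) for *Mrps10* and 105 ± 17.6 CPM per kb for *Mrps21*. *Mrps21* was followed by *Mrps28* (59.0 ± 5.48), *Mrpl54* (58.5 ± 7.19), *Mrpl53* (56.3 ± 8.77) and *Mrpl18* (53.9 ± 7.63), and these 4 did not differ from one another beyond their spread. The 5 lowest were *Mrpl47* (3.76 ± 0.33), *Mrps5* (3.63 ± 0.595), *Mrpl19* (3.62 ± 0.451), *Mrps35* (1.92 ± 0.195) and *Mrps10*. The order was nearly the same in ΔMF muscle, with Spearman's correlation of 0.996 over the 77 genes as a description. With the longest transcript as the length the WT median was 19.5 CPM per kb. Merged exon and longest transcript were 8079 and 4090 bases for *Mrps10*, 739 and 488 for *Mrps21*, and 783 and 783 for *Mrps28*. The scale, range and order of these levels thus depend on the annotation.

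*Mrps21*, encoding the homologue of bacterial bS21, had 85.1, 113 and 118 CPM per kb in WT and 77.9, 91.1 and 102 CPM per kb in ΔMF mice (log2 fold change -0.22, SE 0.14). The other highest genes had log2 fold changes of -0.019 for *Mrps28*, -0.10 for *Mrpl54*, -0.14 for *Mrpl53* and 0.0098 for *Mrpl18*. Those of the lowest genes were 0.048 for *Mrpl47*, 0.019 for *Mrps5*, -0.079 for *Mrpl19* and -0.068 for *Mrps35*. Neither end of the range held a member that passed the test.

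**Figure D5:**
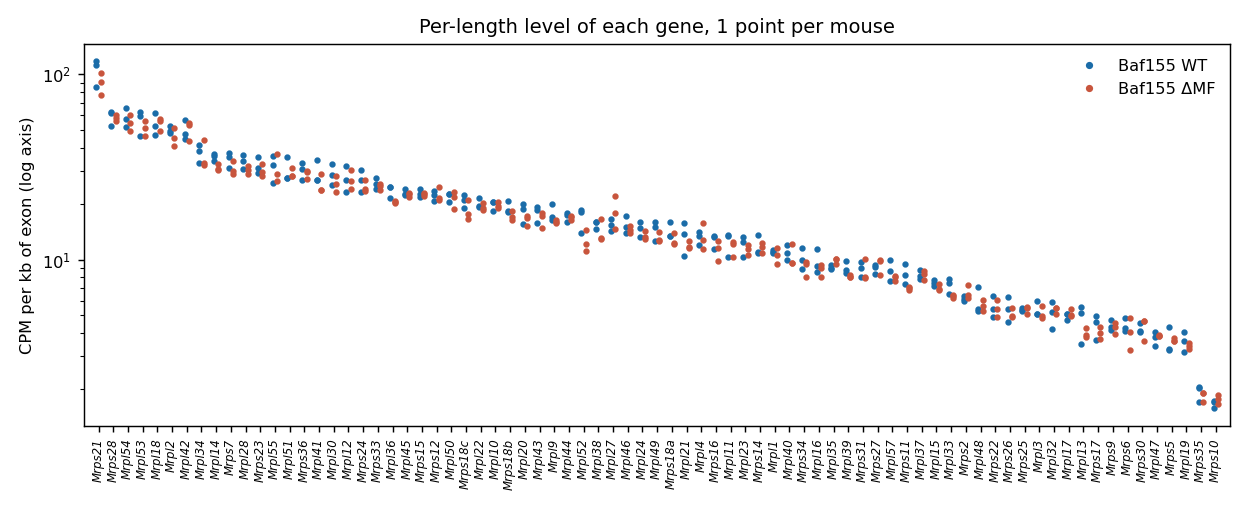
Level of each of the 77 genes in CPM per kb of merged exon (log axis), 1 point per mouse, in the order of the WT mean. The levels span from 1.66 for *Mrps10* to 105 for *Mrps21*, while points of both genotypes lie close together within each gene.

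The remaining genes of mitochondrial translation were taken from lists of known function. Of the 6 mitoribosomal proteins with other symbols, 5 were below 0 (median -0.04), from *Ict1* at -0.18 (SE 0.13) to *Chchd1* at 0.066 (SE 0.12), and none passed the test. Of 15 translation factors 5 were below 0 (median 0.054). *Taco1*, which activates translation of a cytochrome c oxidase subunit, had 23.0, 20.8 and 19.5 CPM in WT and 26.8, 23.3 and 26.4 CPM in ΔMF mice without overlap (0.27, SE 0.11, edgeR adjusted p = 0.601). *Slirp*, an RNA-binding partner of Lrpprc, had the lowest value of that list at -0.17 (SE 0.12).

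Among 24 genes for assembly of the mitoribosome and modification of its rRNA, 14 were below 0. Of the 24, 5 were lower without overlap (against 5.57% of all genes tested) and 1 was higher without overlap (against 5.2%). *Nsun4*, an rRNA methyltransferase that also acts in the joining of the subunits, had 27.1, 25.2 and 29.7 CPM in WT and 22.3, 22.3 and 24.8 CPM in ΔMF mice (-0.24, SE 0.11, edgeR adjusted p = 0.617), with -0.28 within MS13. *Gtpbp10*, a GTPase of large subunit assembly, had 17.1, 16.6 and 17.0 CPM against 19.5, 19.9 and 18.0 CPM (0.18, SE 0.10). The 20 mitochondrial aminoacyl-tRNA synthetase and amidotransferase genes had a median of 0.0039, with *Lars2* spread from 281 to 695 CPM in WT and from 185 to 484 CPM in ΔMF mice (-0.67, SE 0.35) and *Vars2* at 0.22 (SE 0.14).

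Regulators of mitochondrial gene expression had a median of 0.0089 over 13 genes. *Ppargc1a*, a coactivator of mitochondrial biogenesis, had 59.4, 47.4 and 46.0 CPM in WT and 62.4, 55.7 and 58.7 CPM in ΔMF mice (0.21, SE 0.11, edgeR adjusted p = 0.627), and -0.011 within MS13. *Nrf1*, whose core motif was searched above, had 16.4, 15.99 and 15.6 CPM against 13.99, 15.2 and 15.4 CPM (-0.11, SE 0.11). None of the 78 genes in these 5 lists passed the adjusted limit. Without WT mouse MS13-3, 2 of the 78 did, *Ppargc1a* at 0.34 (edgeR adjusted p = 0.0417) and *Lars2* at -0.95 (edgeR adjusted p = 0.0439). *Lars2* was at -1.16 without ΔMF mouse MS13-1, at -0.33 without WT mouse MS15-2 and at 0.25 with the prefix as a covariate.

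Other gene sets of translation and respiration were measured in the same libraries. Of 82 cytosolic ribosomal protein genes, 81 were below 0 with a median of -0.22, and the median was 0.091 within MS13 and 0.45 between MS15 and MS13 WT mice. Of 81 nuclear genes for subunits of the respiratory complexes, 59 were below 0 with a median of -0.06, and -0.029 within MS13. The mitochondrial ribosomal protein genes had a median between those of these sets in the comparison of 3 against 3 mice, and no test of the difference between sets was made.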

How the data were processed

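Hind limb muscle RNA of 3 Baf155 WT and 3 Baf155 ΔMF mice was sequenced by the authors with a stranded total RNA kit. The values are expected counts per gene, not normalized, as deposited by the authors. The submitters' processing notes name cutadapt 1.10, Bowtie2 2.2.7, TopHat2 2.1.1, RSEM 1.2.30 and the mouse build mm10 (GRCm38). The annotation and the use of strand in counting are not given in the sources used here, and 14 of the 77 genes had fractional estimates, which mark reads shared with other genes. Mitochondrially encoded genes were not analysed here.

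Counts were rounded and tested in R 4.3.3 with edgeR 4.0.16: filterByExpr (minimum count 10, total 15), TMM scaling, quasi-likelihood F test of genotype without a covariate, and Benjamini-Hochberg adjustment over all 12116 genes tested. The limit was an adjusted p of 0.05, and log2 CPM used a prior count of 2. Alternatives included DESeq2 1.42.0 and limma 3.58.1. The procedure was tested on simulated data with the same dispersion for every gene and no effect of the prefix. That test therefore does not cover the prefix differences described above. Intervals of shares are Clopper-Pearson and, as with limits from counts, cover counting error only.

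Positions, exonic lengths and overlaps came from GENCODE M21 on GRCm38 (all 77 symbols matched), and promoters from RefSeq, 1 per gene, the most upstream. Genes and lists were chosen with earlier results of these data known. Named in the text are the 6 members with the smallest p in each direction, the 5 highest and lowest per length, members with a special role, and in each other list the gene with the smallest p in each direction. *Mrpl9*, *Mrpl13*, *Mrpl32*, *Mrpl39*, *Mrpl42* and *Mrpl46* were named after their values were seen.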

Additional observations from a re-analysis of the deposited data

How the results depend on the processing

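No member passed the adjusted limit under DESeq2, limma-voom, the other scalings and filters, the robust fit, the prefix covariate or the GC and length trends, and 0 to 2 did without 1 mouse (2 without WT mouse MS13-3). Lower members at an unadjusted p under 0.05 numbered 1 with DESeq2, against 380 of 12116 genes tested. They numbered 1 with limma-voom, against 482, and 1 with relative log expression scaling, against 552. With upper-quartile scaling they numbered 2, against 589. They numbered 5 with library size only, where 64.2% of all genes were below 0 and the share at this limit is not given here. With the GC trend removed they numbered 2, and with the length trend removed 2. Without 1 mouse they numbered 0 to 15, with 15 (19.5%, against 11.8% of all genes) without WT mouse MS13-3. They were 0 without WT mouse MS15-2, WT mouse MS15-3 or ΔMF mouse MS13-1. Higher members numbered 1 with the prefix covariate, 1 with the length trend removed, and 0 to 1 without 1 mouse. Shares of all genes at this limit are not given for the other fits, so these counts cannot be set against them. Members below 0 numbered 33 with the prefix covariate (median 0.023) and 47 to 65 without 1 mouse (median -0.13 to -0.021). Without both MS15 WT mice, an alternative added after seeing the data, 32 members were below 0 and the median was 0.038. The difference of the mean log2 CPM was 0.031 in that fit, which keeps 1 WT mouse. The median per-length level was 19.5 CPM per kb with the longest transcript. In the last 150 bases of the promoter windows the ETS/GABP core was found in 29.4%, the NRF1 core in 8.82%, the YY1 core in 14.7% and the E-box in 2.94%.

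Of 41 named genes, 20 kept their direction under all 17 other fits and 21 did not. Without both MS15 WT mice, 11 of the 41 changed sign, *Mrps21* (0.085) among them. The log2 fold change reversed with upper-quartile scaling for *Mrpl18* (-0.0054) and *Mrps12* (-0.0027). With library size only it reversed for *Mrpl17* (-0.011), *Mrpl18* (-0.056), *Mrpl47* (-0.013), *Mrps5* (-0.047), *Mrps12* (-0.051), *Mrps30* (-0.034) and *Chchd1* (-0.0020). With the prefix covariate it reversed for *Mrps27* (-0.0021), *Mrps28* (0.17), *Mrpl54* (0.076), *Mrpl53* (0.082), *Mrpl47* (-0.076), *Mrps35* (0.086), *Mrps36* (0.087), *Ict1* (0.022), *Slirp* (0.0093), *Lars2* (0.25), *Vars2* (-0.0071) and *Ppargc1a* (-0.0091). With the GC trend removed this held for *Mrps28* (0.011), *Mrpl12* (0.0071) and *Mrps30* (-0.029), and with the length trend removed for *Mrps28* (0.12), *Mrpl54* (0.030), *Mrps5* (-0.021), *Mrpl12* (0.071), *Mrpl44* (0.067), *Mrps30* (-0.0077) and *Mrps36* (0.044). Without 1 mouse at a time, both signs occurred for *Mrpl18* (-0.075 to 0.12), *Mrps5* (-0.046 to 0.16), *Mrps12* (-0.062 to 0.060), *Chchd1* (-0.038 to 0.16), *Mrps28* (-0.091 to 0.026), *Mrpl47* (-0.016 to 0.11), *Mrpl19* (-0.17 to 0.012), *Mrpl12* (-0.12 to 0.11), *Mrpl44* (-0.063 to 0.012), *Mrps36* (-0.14 to 0.0062) and *Mrps30* (-0.025 to 0.14). The cause was not tested. No paired analysis was made, because the labels record no pairs and only the prefix MS13 covers both genotypes, with 1 WT mouse. With 3 mice per genotype and 48 to 2338 counts per member and mouse, the precision of each fold change is that of its standard error.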

Other observations

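Many of the mitochondrial ribosomal protein genes start close to another gene on the opposite strand. In GENCODE M21, 26 of 77 members (33.8%) have a protein-coding gene starting head to head, at most 1000 bases upstream or with starts overlapping by up to 500 bases, against 14.01% of the 11847 protein-coding genes tested. The partners include *Ndufs6*, a complex I subunit, beside *Mrpl36*, the mitochondrial seryl-tRNA synthetase gene *Sars2* beside *Mrps12*, and *Fau*, encoding a cytosolic ribosomal protein fused to a ubiquitin-like protein, beside *Mrpl49*. *Mrps12* and *Sars2* had log2 fold changes of 0.012 and 0.0034. For *Mrpl36* and *Ndufs6* they were -0.21 and -0.14, and for *Mrpl49* and *Fau* they were -0.14 and -0.33. Other pairs lay on different sides of 0, such as *Mrpl40* (-0.078) and *Hira* (0.45), which encodes a histone chaperone. Of the 21 partners that were tested and are not members themselves, 10 were below 0 and the median was 0.0034, while none had an edgeR adjusted p under 0.05. These pairs were picked after their values were seen, and reads of pairs that overlap cannot be told apart without strand.

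The other mice also differed in how often they held the lowest value of a member. ΔMF mouse MS13-1 was lowest for 31 of 77 members (40.3%, against 18.4% of all genes) and WT mouse MS13-3 for 19 (24.7%, against 14.7%).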
